A study of Mus musculus with 4 samples.

Results

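Vehicle-only promoter peaks were the SHP binding peaks that lay at a promoter in the livers of vehicle-treated mice and that shared no base with any peak of the FGF19-treated mice. They were selected on the deposited peak calls themselves: a peak of the vehicle list was taken when no FGF19 peak overlapped it and its centre lay within 1 kb of the transcription start site (TSS) of any annotated transcript. There were 625 such peaks among 1508 vehicle peaks, and among 4663 peaks in both lists together. Of the 1097 vehicle peaks at promoters they made up 57.0%. Peak presence, peak strength and the absence of an FGF19 peak were thus used in choosing them, and values of that kind are given below as a description without a test.

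SHP was measured by ChIP-seq in the liver of male C57BL6 mice aged 8 to 12 weeks. All mice had been fasted for 12 h, then received vehicle or FGF19 (1 mg/kg) in the tail vein, and livers were taken after 2 h. Material of 3 mice was combined into 1 SHP ChIP library and 1 input library for each group. There is therefore no replicate check on any difference between the groups, and no p-value is given. The libraries held 15473647 tags with vehicle and 13444078 with FGF19 after duplicate positions were removed, so the vehicle library was the deeper one. Intervals are 95% intervals over peaks or genes and cover counting error only. Liver holds several cell types and no expression was measured here. Promoter peaks are no measure of cell type, and at the background share of 3.17% of protein-coding genes given below few marker genes would be met. Of 13 hepatocyte marker genes 0 had a vehicle-only, 2 a common and 1 an FGF19-only promoter peak, and of 29 marker genes of other liver cells 0, 0 and 1.

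SHP (small heterodimer partner, encoded by Nr0b2) is found on chromatin only where partner proteins hold it. It keeps the ligand-binding fold of a nuclear receptor without the zinc fingers that touch DNA, and genes to which it is recruited are as a rule turned down. FGF19, and its mouse counterpart FGF15, is an intestinal hormone released after a meal that acts on the liver through FGF receptors and ERK kinases and represses bile acid synthesis through SHP. Fasted livers, as here before the injection, oxidise fatty acids and make glucose, and feeding reverses this.

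The DNA under the strongest vehicle-only promoter peaks is shown first, with peaks that hold the 3 motifs described below. The sequences are from the mm9 genome, 5′ to 3′ on the strand of the nearest gene, on which a motif can lie in either direction. In the 3 longer stretches capitals mark each match to a motif searched, and in the 3 shorter ones they mark only the match of the motif for which the stretch is shown. The peak of 2700081L22Rik had the largest fold enrichment, and its 201 bases about the summit (chr4:52451858-52452058, minus strand) held none of the motifs. The corresponding stretches upstream of Rps12 (chr10:23507097-23507297, minus strand) and Psmb5 (chr14:55236921-55237121, minus strand) held an ETS match and a pair of YY1/SRE core matches. Shorter stretches show the strongest members with the ZBTB33 motif at Ddx20 (chr3:105490353-105490382, minus strand), with the motif of the logo labelled RUNX2 at Tcfeb (chr17:47873876-47873955, plus strand) and with the forkhead motif at Otud1 (chr2:19579293-19579372, plus strand).
2700081L22Rik: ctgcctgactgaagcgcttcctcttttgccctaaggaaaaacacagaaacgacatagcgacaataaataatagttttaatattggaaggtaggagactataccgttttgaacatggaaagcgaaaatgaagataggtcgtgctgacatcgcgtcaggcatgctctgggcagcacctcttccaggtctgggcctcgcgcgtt
Rps12: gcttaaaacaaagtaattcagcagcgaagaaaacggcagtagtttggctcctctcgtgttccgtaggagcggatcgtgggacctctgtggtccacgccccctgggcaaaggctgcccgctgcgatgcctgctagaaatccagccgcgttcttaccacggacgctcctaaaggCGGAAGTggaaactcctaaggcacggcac
Psmb5: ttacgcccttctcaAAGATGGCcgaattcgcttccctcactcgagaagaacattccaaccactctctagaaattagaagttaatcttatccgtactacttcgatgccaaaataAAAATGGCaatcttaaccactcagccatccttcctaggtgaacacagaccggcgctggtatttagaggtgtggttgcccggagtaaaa
Ddx20: aagtctaaataTCGCGAGAtctggaggcgc
Tcfeb: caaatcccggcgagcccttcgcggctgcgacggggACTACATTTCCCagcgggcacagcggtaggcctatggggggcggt
Otud1: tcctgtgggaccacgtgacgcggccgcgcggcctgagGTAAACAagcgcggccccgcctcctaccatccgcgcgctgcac

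The members with the largest fold enrichment are given first. For each peak the pileup counts the extended tags that cover the summit in the vehicle ChIP library, and the fold enrichment is the ratio of pileup to the local background of the input. The peak between 2700081L22Rik and Smc2, which encodes a condensin subunit (chr4:52451750-52452187), had a fold enrichment of 9.34 at a pileup of 60, with its summit 121 bp upstream of the TSS. The peak upstream of Rps12 (chr10:23506976-23507377), a gene of the small ribosomal subunit, had 9.25 at a pileup of 53. The peak upstream of Psmb5 (chr14:55236808-55237112), a catalytic subunit of the proteasome, had 8.53 at a pileup of 37. These 3 summits lay between annotated genes, and the FGF19 peaks nearest to those of Rps12 and Psmb5 were 837670 and 100139 bp away.

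Next in fold enrichment were Tmem39b at 8.47, Pin4 at 8.28, Hmgb1 at 8.01, Dynll1 at 7.81, Nhlrc3 at 7.77, Gm9900 with Sh3bp5l at 7.44, and Lrr1 at 7.14. Hmgb1 encodes an abundant chromatin protein and Dynll1 a light chain of dynein. The 5 largest pileups were those of 2700081L22Rik, Lrr1 (54), Rpl21 (54), Rps12 and Hjurp (53). The Hjurp peak had a fold enrichment of 2.34 over a local background of 22.1, against a median background of 4.84 over all members. The longest member, at Ric8, spanned 1143 bp, followed by Carkd (909 bp), A730061H03Rik (843 bp), C330006A16Rik (780 bp) and Slc22a4 (750 bp), and the fold enrichment of these 5 ranged from 2.15 to 6.02. The gene-by-gene plot of fold enrichment gives the members of 10 gene lists beside the median of all members.

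**Figure D1:**
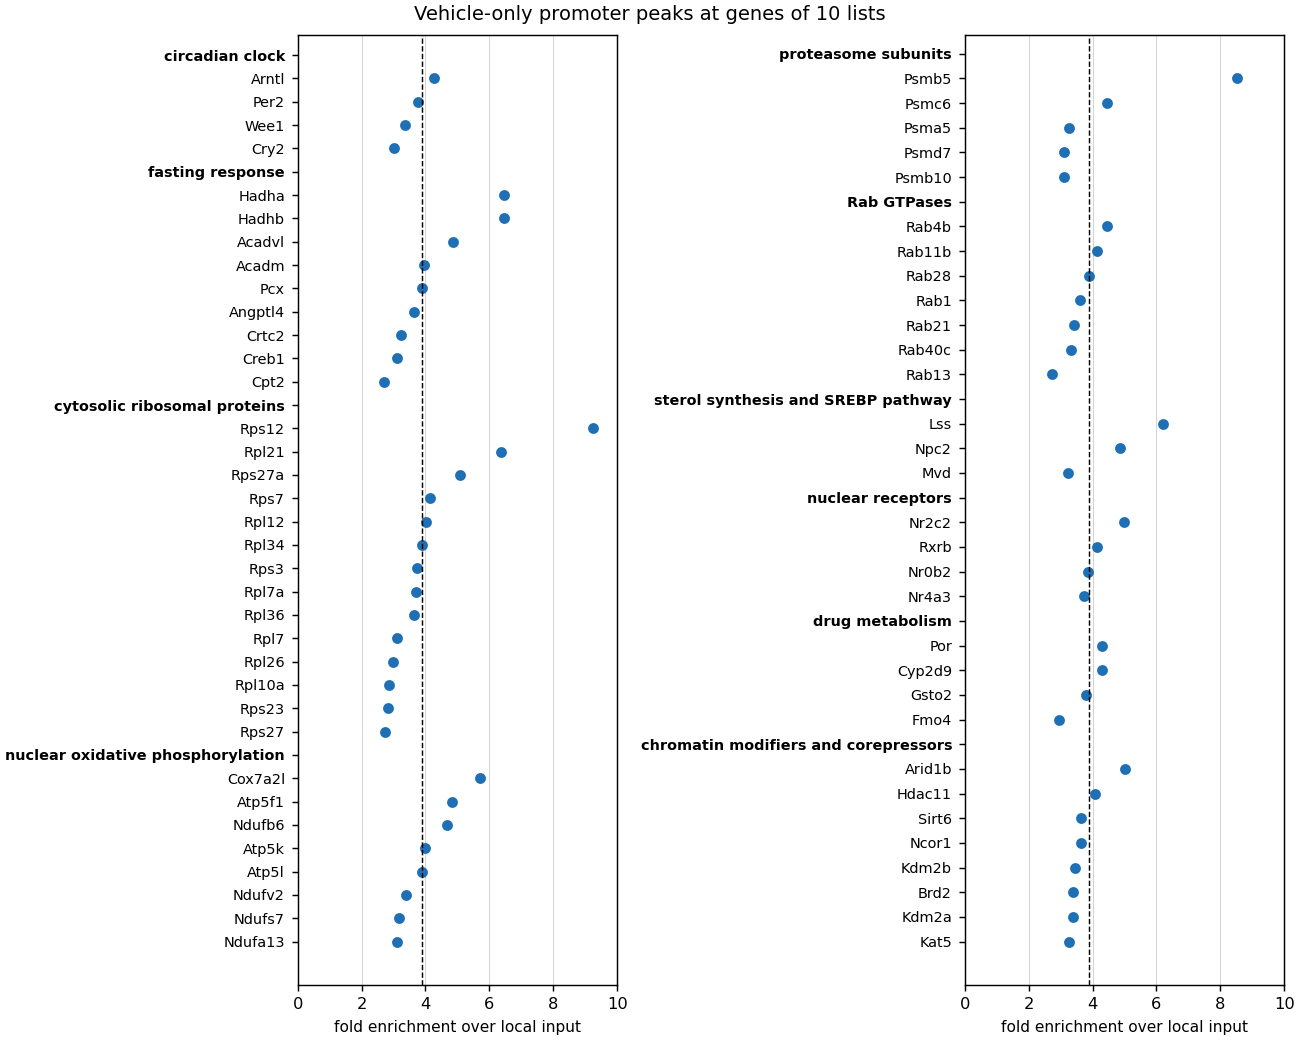
Fold enrichment over the local input background (horizontal axis, linear ratio) of each vehicle-only promoter peak at a gene of 10 lists, with 1 point per gene and the dashed line at the median of all 625 members, 3.89. Rps12 at 9.25 and Psmb5 at 8.53 stand far to the right, while most points lie between 2.70 and 5.01.

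Among themselves the members were mostly modest peaks. Their median fold enrichment was 3.89 (quartiles 3.41 and 4.47), their median pileup 22 (19 and 26) and their median -log10 q-value 4.41 (3.08 and 6.20). The 472 common promoter peaks, which are the vehicle promoter peaks that did share a base with an FGF19 peak, had medians of 4.15, 27 and 5.80. The 2101 FGF19-only promoter peaks had medians of 3.94, 24 and 4.99. A -log10 q of 10 or more was reached by 34 members (5.44%), by 119 common peaks (25.2%) and by 118 FGF19-only peaks (5.62%), and a value of 20 or more by 8, 49 and 1.

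The share of vehicle promoter peaks that were vehicle-only varied with -log10 q and pileup. Both values come from the same peak calls as the rule, so this is a description and not a test. The peaks were sorted by -log10 q into 5 groups of equal size, and in the strongest group 68 of 220 were vehicle-only, which is 30.9% (Wilson interval 25.2 to 37.3). In the following groups the share was 59.1%, 61.2%, 64.8% and 68.9% (62.5 to 74.7 in the weakest). Pileup gave the same order, from 31.8% to 74.9%. Fold enrichment did not, with 37.7% in the strongest group, 66.2% in the next to weakest and 57.5% in the weakest. A vehicle-only call means that no FGF19 peak passed the q-value cutoff at that place, and whether tag density differed there was not analysed here.

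**Figure D2:**
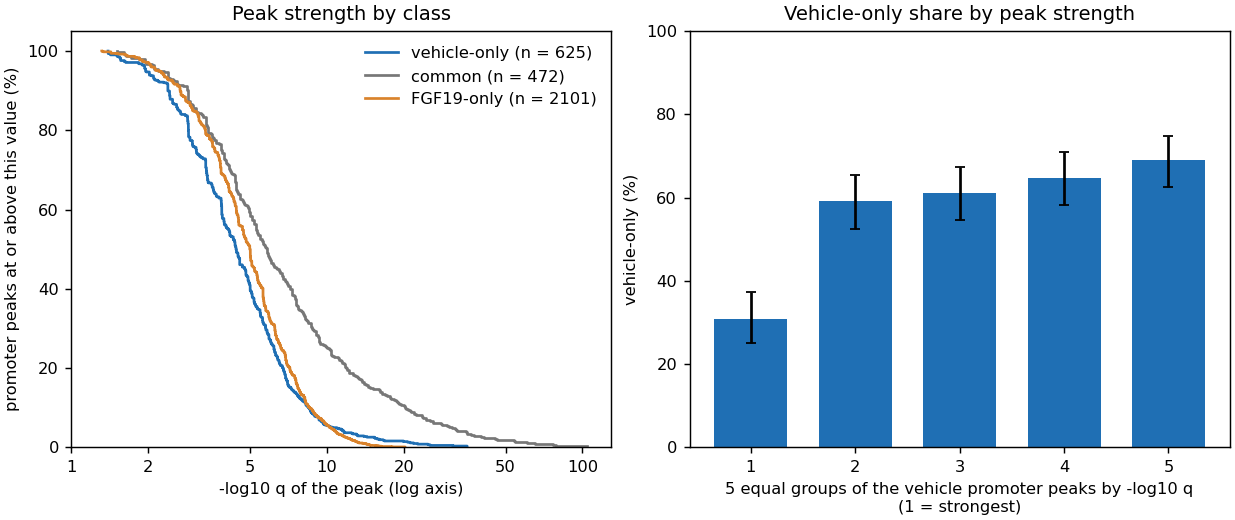
The left panel gives the share of promoter peaks of each class at or above each -log10 q (log axis), and the right panel the vehicle-only share in each of 5 equal groups of the 1097 vehicle promoter peaks by -log10 q, with 95% Wilson intervals. The curve of the vehicle-only peaks runs left of that of the common peaks, and the share rises from 30.9% to 68.9% between the strongest and the weakest group.

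The edges of the selection were as follows. Just inside the distance limit lay the peaks at Necab2, Tnrc18 and Mesp1, with centres 950.5, 925.5 and 906.5 bp from a TSS. Just outside lay the vehicle-only peaks near Lmnb1, Phyh and Hic1, at 1011, 1023.5 and 1024.5 bp. Phyh, which encodes a peroxisomal enzyme of fatty acid alpha-oxidation, had a fold enrichment of 5.33 and a pileup of 35 and is not counted among the members. On the overlap side, the smallest gaps to an FGF19 peak were 7 bp at 5031439G07Rik, 25 bp at Btbd6 and 30 bp at Taf3, whereas peaks at Smad2, Ddx17 and Ptpn2 shared 1, 12 and 20 bp with one and counted as common.

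A vehicle-only call did not always mean that the promoter lacked an FGF19 peak. At 50 members (8.00%, Wilson interval 6.12 to 10.4) an FGF19 peak lay within 1 kb of a TSS of the same gene without touching the vehicle peak. For 40 of these 50 the FGF19 peak was itself FGF19-only, so that the promoter carried a separate peak in each group. At Odc1, the first enzyme of polyamine synthesis, the vehicle peak had a fold enrichment of 4.27 and the FGF19 peak 5.92, with a gap of 55 bp and 366 bp between summits. At Epas1, which encodes the hypoxia factor HIF-2α, the values were 4.26 and 2.83 with a gap of 89 bp. At Tcfeb, which encodes TFEB, a regulator of lysosomal genes, they were 6.22 and 3.14 with a gap of 545 bp. The summits of the pairs at Epas1 and Tcfeb lay 450 and 761 bp apart.

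Longer distances within a gene came from alternative starts. At Scarb1, the HDL receptor, the vehicle peak (fold enrichment 3.85) and the FGF19 peak (3.48) lay 14370 bp apart at different annotated starts, and at Alas1, the first enzyme of haem synthesis, the peaks (3.92 and 4.12) lay 10990 bp apart. These genes, with Odc1 and Epas1, were named after their values were seen. Over all members the median gap to an FGF19 peak was 97291 bp, and 42 members (6.72%) had one within 1 kb. Of the 710 protein-coding genes with a vehicle-only promoter peak, 655 had no FGF19 peak of any kind at a promoter. Most protein-coding genes had none either, since 10.2% of all 22380 had an FGF19-only and 2.41% a common promoter peak. The count also follows in part from the rule, which took only peaks that no FGF19 peak overlapped.

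By position the members were centred on the TSS. The median summit lay 25 bp upstream, 465 of 625 summits (74.4%) lay within 200 bp and 37 (5.92%) farther than 500 bp. Summits downstream of the TSS made up 43.0% of the members (269 of 625), 43.9% of the common peaks and 49.4% of the FGF19-only peaks. The difference from the common peaks was -0.816 percentage points (Newcombe interval -6.73 to 5.08), and that from the FGF19-only peaks was -6.37 (-10.7 to -1.91). The members thus lay less often downstream of the TSS than the FGF19-only peaks, and about as often as the common peaks. Summits of members and common peaks come from the vehicle library, those of FGF19-only peaks from the FGF19 library. Class and library therefore cannot be told apart in that difference.

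Exons held 45.4% of member summits and 51.5% of FGF19-only summits, a difference of -6.11 points (-10.5 to -1.64), and the space between genes held 37.0% and 29.9%, a difference of 7.07 (2.87 to 11.4). Among the common peaks, again from the vehicle library, the shares were 47.2% and 38.6%. Introns held 17.6% of the member summits. The nearest gene was protein-coding for 607 members, with 8 lincRNAs, 8 processed transcripts, 1 snoRNA and 1 miRNA. At 91 members (14.6%) protein-coding genes of both strands began within 1 kb, as with Hadha and Hadhb, against 85 of 472 common peaks and 13.1% of FGF19-only peaks, and the intervals of both differences included 0.

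**Figure D3:**
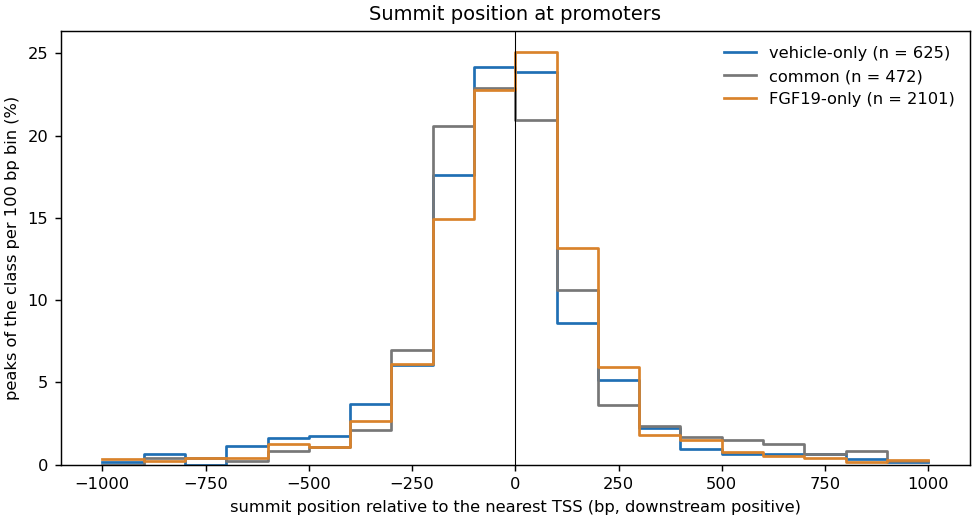
Position of the summit relative to the nearest TSS (horizontal axis, bp, downstream positive) as the percentage of each class in bins of 100 bp, with the few summits beyond 1 kb not drawn. All classes peak at the TSS, and the members have 43.0% of their summits downstream against 49.4% of the FGF19-only peaks.

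The members lay in DNA that was somewhat less rich in CpG than that under the FGF19-only peaks. A window of 201 bp about the summit had the properties of a CpG island (GC of at least 50% and an observed-to-expected CpG ratio of at least 0.6) in 81.1% of members, 86.4% of common peaks and 91.8% of FGF19-only peaks. The difference was -5.32 points from the common peaks (-9.61 to -0.880) and -10.7 from the FGF19-only peaks (-14.1 to -7.56). Median GC was 66.2%, 67.2% and 70.1%. Of the 19129 protein-coding promoters without a peak, 41.5% had these properties in the 201 bp about the TSS.

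Motifs were searched as exact letters on both strands within 100 bp of the summit, and no motif's letters contain those of another. Of 625 members 355 held at least 1 of the 13 motifs and 270 held none. The letters AANATGGC, called here the YY1/SRE core because the study ascribes the motif both to the zinc finger factor YY1 and to SREBP-2, were in 63 members. That is 10.1% (Wilson interval 7.96 to 12.7), against 14.6% of common peaks, 7.14% of FGF19-only peaks, 4.92% of promoters without a peak and 5.70% of all 22350 promoters. The member share lay below that of the common peaks by 4.54 points (interval of the difference -8.61 to -0.636) and above that of the FGF19-only peaks by 2.94 (0.512 to 5.74). Promoters without a peak, reweighted to the GC of the members, held it in 5.39%.

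Peak strength moved with this result. Among peaks with a -log10 q of at least 5, a split added after the data were seen, the core was in 12.5% of members, 20.4% of common and 8.87% of FGF19-only peaks. Among the weaker peaks it was in 8.38%, 6.22% and 5.42%, so the members no longer stood below the common peaks there (difference 2.16, -2.80 to 6.35). The strongest member with the core, Psmb5, held it at 2 places, as the sequence above shows. In the members the match closest to the summit lay at a median of 3.5 bp upstream of the TSS, and 29 of 63 (46.0%) were downstream. In the FGF19-only peaks 94 of 150 (62.7%) were, a difference of -16.6 points (-30.5 to -2.08). In the common peaks 25 of 69 (36.2%) were, a difference of 9.80 points (-6.83 to 25.8), so the members lay between the classes. The same comparison was made for ZBTB33, NF-Y and SP1, described below, and all those intervals ran from negative to positive values.

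The letters TCTCGCGA, the motif of ZBTB33 (Kaiso), a factor of CpG-rich promoters, were in 26 members. That is 4.16% (2.85 to 6.03), against 7.20% of common peaks, 1.86% of FGF19-only peaks, 0.643% of promoters without a peak (0.933% after reweighting to the GC of the members) and 1.08% of all promoters. The difference was -3.04 points from the common peaks (-6.04 to -0.306) and 2.30 from the FGF19-only peaks (0.836 to 4.23). The interval of the difference from the common peaks included 0 with a window of 50 bp (-1.78 points), at a -log10 q of at least 5 (-3.11) and below it (-1.94), and that from the FGF19-only peaks included 0 below it (1.25). The strongest members with this motif were at Ddx20, Nktr, 2310035C23Rik and Nfyc, with fold enrichments of 5.51, 5.40, 5.39 and 4.84. Most of the matches lay just upstream of the TSS, with a median of -38.5 bp and 5 of 26 downstream.

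The forkhead letters TGTTTAC, bound by liver factors of the FOXA and FOXO families, were in 13 members (2.08%), 1 common peak (0.212%) and 17 FGF19-only peaks (0.809%). Promoters without a peak held them in 1.73% (1.13% after reweighting) and all promoters in 1.61%. The differences were 1.87 points (0.565 to 3.32) and 1.27 (0.284 to 2.75), but they rest on few peaks and the interval included 0 with a window of 50 bp (0.588 and 0.324 points). Over the whole peak the difference from the common peaks changed direction (-0.566), and against FGF19-only peaks reweighted to the GC of the members the difference was 0.736. Members with the letters included those at the clock gene Arntl, at Crtc2, a coactivator of glucose production, at Mcm4, at Brd2 and at Otud1, where the match lay 356 bp upstream of the TSS.

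For the other 10 motifs the intervals of both differences included 0, in 26 differences computed in all and not adjusted for their number. Their shares are given for members, all promoters, and promoters without a peak reweighted to the GC of the members, in that order. GC boxes of SP1 (CCCCGCCCC) were in 17.3%, 11.9% and 17.1%, NF-Y (ATTGGC) in 12.8%, 12.0% and 12.6%, ETS (ACTTCCG) in 8.32%, 6.82% and 8.26%, and E-boxes (CACGTG) in 7.68%, 5.57% and 7.03%. The half-site of nuclear receptors (AGGTCA) was in 7.52%, 8.91% and 7.21%, and the NRF1 motif (GCGCATGCG) in 2.08%, 1.70% and 2.23%. The cyclic AMP response element (TGACGTCA) was in 1.28%, 1.93% and 2.34%. The letters TATAAA of the TATA box were in 1.44%, 8.21% and 4.53%, and in 2.54% of common and 1.76% of FGF19-only peaks. For this and the other motifs, promoter windows lay about the TSS and peak windows about the summit, so the places compared differ. In the 9 members with TATAAA the median match lay 119.5 bp upstream of the TSS, and 1 lay within 50 bp of it. The HNF4 letters CAAAGTCCA, of a leading hepatocyte factor, were in 0 of 625 members, which allows a share of up to 0.480% when 3 counts of the total are taken as the limit (Wilson upper limit 0.611%), against 0.246% of all promoters. The strongest members holding some of these were Dynll1 for SP1, Hmgb1 for NF-Y, Rps12 for ETS, Tor1b for the E-box and Pin4 for the half-site.

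The logo that the study labelled RUNX2, read here as ACTACA followed 2 bases later by TCCC, was in 15 members (2.40%), 1.69% of common peaks, 1.48% of FGF19-only peaks, 1.84% of all promoters and, after reweighting, 1.85% of promoters without a peak. Of the motifs found in members, its matches had the narrowest quartile range of positions and the largest share on the strand of the gene. The median position was 81.5 bp upstream of the TSS (quartiles -92.5 and -59.5), and 12 of 15 were on the strand of the gene. In the 31 FGF19-only peaks with the motif the median was -83.5 bp and 20 of 31 were on the strand of the gene, so that place was shared. Tcfeb, shown above, was the strongest member with it, and Crtc2, Rpl7, Lsm10 and Kif2c were among the others.

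**Figure D4:**
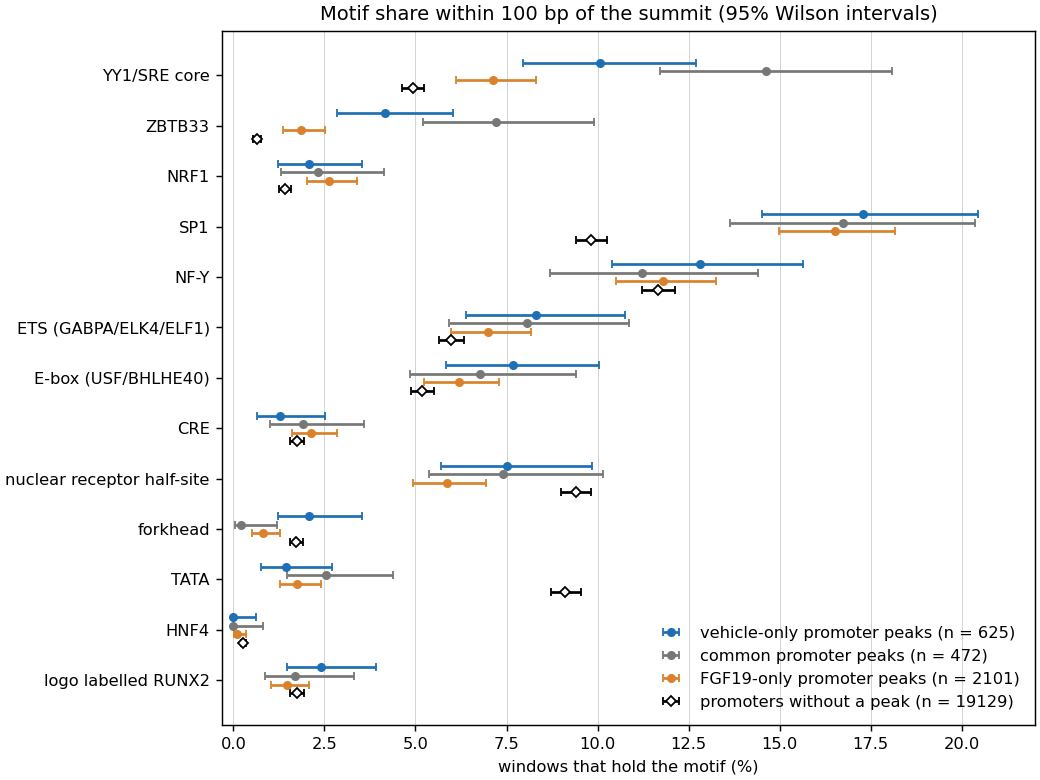
Percentage of windows of 201 bp that hold each of 13 motifs on either strand (horizontal axis) in the 3 classes of promoter peaks and in promoters without a peak, with 95% Wilson intervals. The members lie between the FGF19-only and the common peaks for the YY1/SRE core (10.1%) and for ZBTB33 (4.16%), and close to both for SP1 and NF-Y.

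Genes were then taken as all protein-coding genes with a TSS within 1 kb of a member's centre. There were 710 of 22380 (3.17%), beside 539 (2.41%) with a common promoter peak and 2274 (10.2%) with an FGF19-only promoter peak. The 28 gene lists used below were compiled with earlier results on these peaks known, and their counts are a description beside those background shares. At 118 members a gene of some list was reached, 124 genes in all. In the following, vehicle-only, common and FGF19-only counts are given in that order for each list described. Genes were matched by symbol, and entries that found no symbol were not counted.

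Genes of the fasting response had the largest share with a vehicle-only promoter peak among the 28 lists, 9 of 47 (19.1%, Wilson interval 10.4 to 32.5), beside 3 with a common and 6 with an FGF19-only peak. That interval does not allow for picking the largest of 28 lists. It also treats the 9 genes as separate, although they were reached by 8 peaks. The strongest was a single peak between Hadha and Hadhb (chr5:30481464-30481935), which encode both subunits of the mitochondrial trifunctional protein of fatty acid β-oxidation. Its fold enrichment was 6.46, its pileup 37, and its summit lay 13 bp upstream of Hadha and 73 bp upstream of Hadhb. Acadvl and Acadm, the acyl-CoA dehydrogenases of very long and medium chains, had 4.86 and 3.95, with summits 174 and 46 bp downstream of the TSS in an exon.

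The other members of the fasting list included genes of glucose production and of lipid use. Pcx, pyruvate carboxylase, had a fold enrichment of 3.88, and an FGF19-only peak (2.62) lay 36 bp away. Angptl4, a secreted inhibitor of lipoprotein lipase, had 3.64. Crtc2 and Creb1, the coactivator and the factor of the glucagon response, had 3.23 and 3.12, and Cpt2, the inner carnitine palmitoyltransferase, had 2.70. The last 4 were named beyond the rule for named genes, after their values were seen. The 8 peaks of the list had a median fold enrichment of 3.76, beside 3.89 for all members.

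Cytosolic ribosomal protein genes had vehicle-only promoter peaks at 14 of 85 (16.5%, interval 10.1 to 25.8), a common peak at 1 and FGF19-only peaks at 15. Rps12 (9.25) and Rpl21 (6.35, chr5:147644457-147644759) were among the strongest of all members, followed by Rps27a (5.09) and Rps7 (4.15). The other 10 ranged from 2.74 to 4.00. Peaks at other parts of protein synthesis were seen at 6 of 76 mitochondrial ribosomal protein genes (7.89%; common 4, FGF19-only 16), with Mrps24 at 5.68, Mrpl11 at 4.54, Mrps2 at 3.73 and Mrpl45 at 3.61, and at 5 of 63 translation factors (7.94%; common 1, FGF19-only 10), with Eif2s3x at 5.76 and Eif4enif1 at 4.14.

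Of 29 circadian genes 4 (13.8%, interval 5.50 to 30.6) had a vehicle-only promoter peak, beside 2 with a common and 9 with an FGF19-only peak. Arntl encodes BMAL1, the activator of the clock. Its peak (chr7:120350997-120351508) had a fold enrichment of 4.28 at a pileup of 23, with its summit in an exon at +160 bp from the TSS. The repressor genes Per2 (chr1:93355857-93356187) and Cry2 (chr2:92274136-92274426) had 3.78 and 3.02, with summits 149 and 189 bp upstream. Wee1, a clock-controlled cell cycle kinase, had 3.35 at a summit 585 bp upstream. The -log10 q was 5.47 at Arntl, 5.50 at Per2, 2.97 at Cry2 and 4.35 at Wee1. A cutoff of 2 on both peak lists therefore could not remove any of the 4.

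SHP's own gene was a member. The peak at Nr0b2 (chr4:133109547-133109857) had a pileup of 14, a fold enrichment of 3.87 and a -log10 q of 2.60, its summit fell in an exon at +378 bp from the TSS, and it held the letters of the nuclear receptor half-site. It was the 1 vehicle-only promoter peak among 28 genes of bile acid synthesis and transport (3.57%), near the background of 3.17%. In that list 2 genes had a common and 3 an FGF19-only peak. By pileup the Nr0b2 peak stood among the weakest members, which ranged from 12 to 60 with a 5% quantile of 16. Of 49 nuclear receptor genes 4 had a vehicle-only (8.16%), 3 a common and 6 an FGF19-only peak. Beside Nr0b2 the members were at Nr2c2, which encodes TR4, at 4.99, Rxrb at 4.13 and Nr4a3 at 3.73.

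In the sterol and SREBP list 3 of 33 genes (9.09%) had a vehicle-only promoter peak, beside 2 with a common and 10 with an FGF19-only peak. Lss, lanosterol synthase (chr10:75994124-75994409), had a fold enrichment of 6.22 at a pileup of 31, with the summit 31 bp upstream of the TSS. Npc2, a lysosomal cholesterol carrier, had 4.86, and Mvd, mevalonate diphosphate decarboxylase, had 3.22. The windows at Lss and Mvd each held the NF-Y letters. Of 45 genes of FGF receptor and ERK signalling 1 was a member (2.22%), near the background of 3.17%. It was Spred2, an inhibitor of the ERK pathway, with a fold enrichment of 3.66. In that list 3 genes had a common and 10 an FGF19-only peak.

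Drug metabolism genes were reached at 4 of 162 (2.47%), near the background of 3.17%, beside 1 with a common and 3 with an FGF19-only peak. The 4 were Por, the electron donor of microsomal cytochromes P450 (4.30, chr5:136164787-136165074), Cyp2d9 (4.28), Gsto2 (3.80) and Fmo4 (2.94). Secreted plasma proteins, a main product of hepatocytes, had 2 of 73 (2.74%), against 9 with a common and 4 with an FGF19-only peak. These were Vtn (4.47) and Rbp4 (3.85), and each gene also had a common peak, whose FGF19 interval lay 442 and 204 bp from the member.

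Mitochondrial energy genes encoded in the nucleus had vehicle-only promoter peaks at 8 of 86 (9.30%), common at 7 and FGF19-only at 12. Cox7a2l had a fold enrichment of 5.71, Atp5f1 had 4.82, Ndufb6 had 4.66 and Atp5k had 3.97. Proteasome genes had 5 of 50 (10.0%), 4 and 6, led by Psmb5 with 8.53, then Psmc6 with 4.44, Psma5 with 3.26 and Psmd7 with 3.12. Psmb5 was thus well above the other proteasome members. Genes of Rab GTPases, the switches of vesicle traffic, had 7 of 56 (12.5%), 3 and 9, with Rab4b at 4.44, Rab11b at 4.13, Rab28 at 3.90 and Rab1 at 3.62.

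Chromatin modifiers and corepressors, the class of proteins with which SHP works, had 8 of 95 (8.42%), 2 and 26. Among them were Arid1b (5.01), a subunit of the BAF remodelling complex, Hdac11 (4.09), Sirt6 (3.63) and Ncor1 (3.62), a nuclear receptor corepressor. At Arid1b an FGF19-only peak (3.57) lay 132 bp away. Heat shock proteins and chaperones had 7 of 85 (8.24%), 5 and 17, with Cct8 at 4.81 and a single peak (3.86) at the promoter shared by Hspd1 and Hspe1, the mitochondrial chaperonin pair, and Dnajc24 at 3.80. Ubiquitin enzymes had 7 of 102 (6.86%), 5 and 31, led by Ube2d2 (4.69) and Otud1 (4.66).

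Other lists came closer to the background of 3.17%. Counts in the same order were 4 of 74, 8 and 19 for splicing factors (Sf3a2 at 5.35, Lsm10 at 4.15), and 4 of 91, 10 and 17 for RNA polymerase, Mediator and TAF genes (Taf5 at 4.28, Polr2b at 3.95). They were 4 of 95, 2 and 20 for DNA repair (Lig1 at 4.84, H2afx at 4.11), 4 of 104, 6 and 18 for the cell cycle (Ccna2 at 4.32, Cdk4 at 3.86), and 4 of 106, 1 and 10 for innate immunity (Relb at 4.28, Tbk1 at 3.89). At Relb an FGF19-only peak (4.04) lay 471 bp away. Autophagy and lysosome control had 1 of 37, 1 and 10 (Atg2a at 4.26), and with Tfeb matched under its annotated name Tcfeb (6.22), a match added after the data were seen, it had 2 of 38, 1 and 11. Histone genes had 2 of 67, 0 and 1 through a single peak shared by Hist2h2ac and Hist2h2be (3.53), and Zfp zinc finger genes had 6 of 368, 6 and 40 (Zfp341 at 5.18, Zfp523 at 4.97). The zinc finger genes, at 1.63%, were the list farthest below the background among those with a member.

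**Figure D5:**
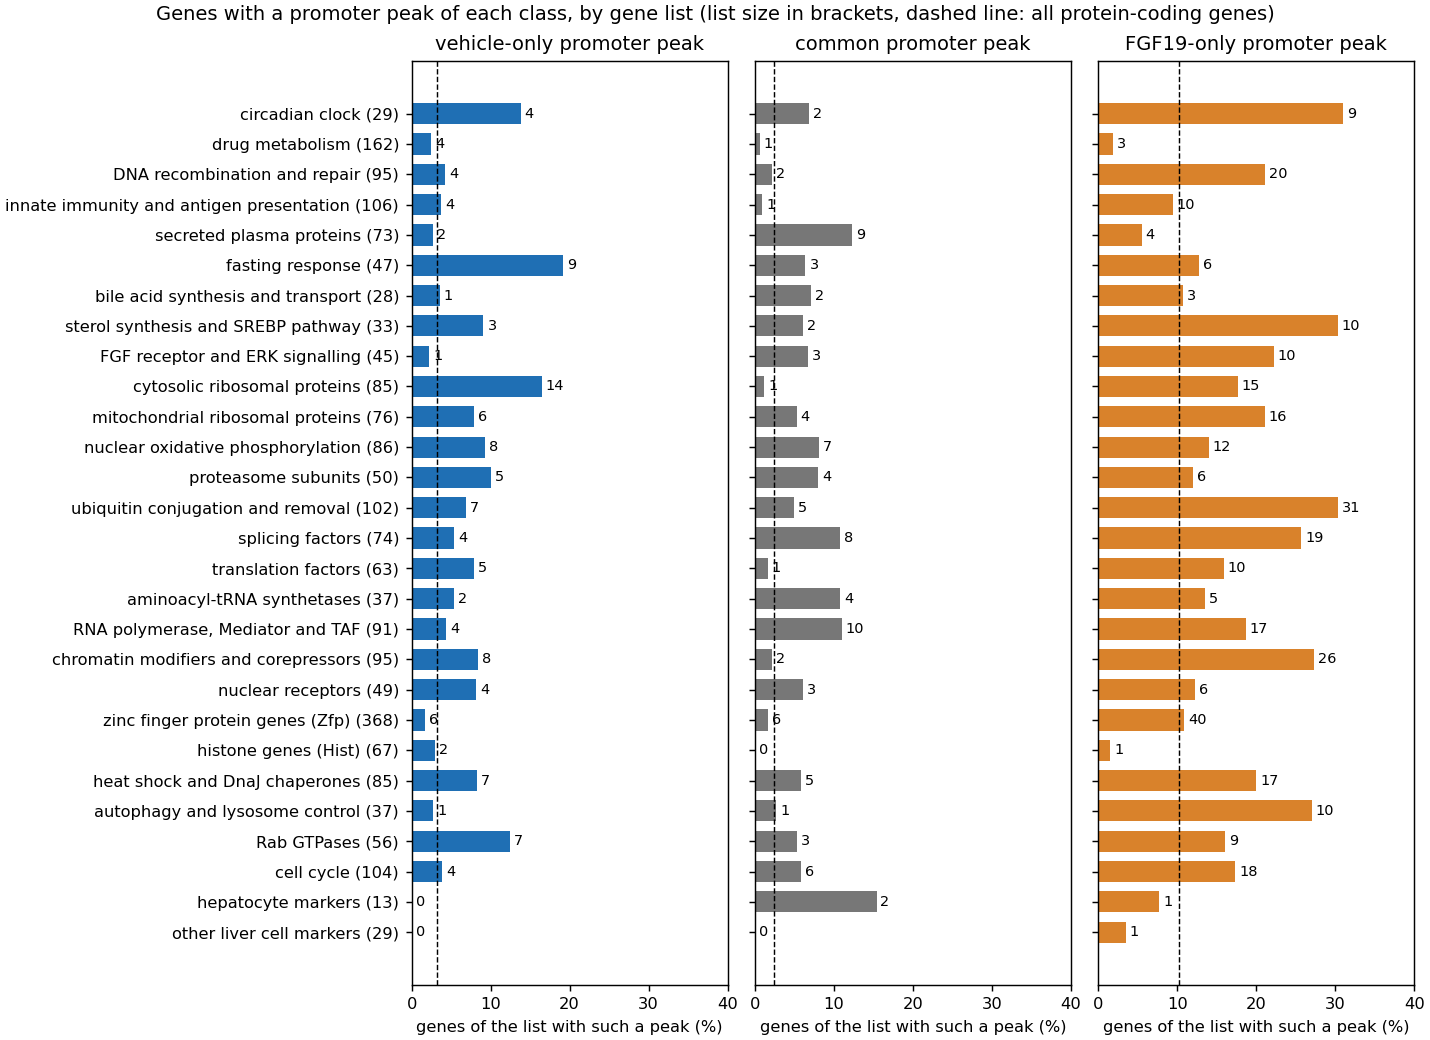
Percentage of the genes of each of 28 lists (list size in brackets) with a vehicle-only, common or FGF19-only promoter peak, with the number of genes beside each bar and the share of all 22380 protein-coding genes as a dashed line (3.17%, 2.41% and 10.2%). Fasting response (9 of 47) and cytosolic ribosomal proteins (14 of 85) have the longest vehicle-only bars.

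Several genes carried more than 1 vehicle-only promoter peak. They were Bcl2l1, Bnip3l, Caprin1, Grb14, Ino80, Rnd2 and Slc15a4, each with 2. Bcl2l1 and Bnip3l encode regulators of mitochondrial apoptosis and mitophagy, and Grb14 an adaptor that inhibits the insulin receptor. By chromosome, the vehicle-only share of vehicle promoter peaks ran from 41.9% on chromosome 18 (13 of 31) to 66.7% on chromosomes 19 (26 of 39) and X (4 of 6).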

How the data were processed

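SHP ChIP-seq peaks of 1 vehicle and 1 FGF19 library, each pooled from 3 mice, were used. The authors mapped reads to mm9 with Bowtie (version 1.0.0, up to 2 mismatches) and called peaks against the input of each group with MACS2 2.0.10.20130501, keeping a q-value under 0.05. CASAVA 1.8.2 is also named in the submitters' processing notes. The authors deposited for each peak a pileup signal, p-values and q-values as -log10, and the fold enrichment, a ratio of pileup to local input background. The input libraries were used here only through that ratio. Tags after the authors' filter were 15473647 with vehicle and 13444078 with FGF19, extended to 240 and 260 bp.

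From these lists, overlap was at least 1 shared base, and promoters were peak centres within 1 kb of the TSS of 95495 GENCODE M1 transcripts, which are on the same build. Motifs were exact letters within 100 bp of the summit, and background promoters were the 201 bp about the most upstream TSS of each protein-coding gene. Those without a peak had a lower median GC (56.7%), so shares were also reweighted in GC bins of 5 points. Wilson and Newcombe 95% intervals were used. Named genes were the 10 members with the largest fold enrichment, the 5 largest pileups, the 5 longest, up to 4 members per gene list by fold enrichment (all members of the circadian, drug, bile acid, sterol and FGF lists), the strongest member with each motif, and the 3 at each edge of the rule. Genes named beyond that were chosen after their values were seen, and some genes under the rule are not reported here. The members, gene lists and motifs were chosen with earlier results of these data known. Alternatives covered overlap, q-value, TSS set and distance, motif window, GC and peak strength. Functions were tested on simulated data and passed 6 of 6 checks. The software was samtools 1.23.1 and Python 3.11.15 with pyfaidx 0.9.0.4, pandas 2.3.3, matplotlib 3.10.9, numpy 2.4.6 and scipy 1.17.1. Reads, tag density between peaks, SREBP-2 binding and gene expression were not analysed here.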

Additional observations from a re-analysis of the deposited data

How the results depend on the processing

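The number of members stayed between 474 and 659 under all 7 alternatives for it, and their share of vehicle promoter peaks left its counting interval when overlap required at least 50% of the shorter peak (60.1%) and when FGF19 peaks within 500 bp counted as shared (53.7%). Counting any gene raised the share of divergent promoters to 21.3%. For the YY1/SRE core, the difference from the FGF19-only peaks no longer excluded 0 over the whole peak (1.64 points) or at a -log10 q of at least 5 (3.68), and that from the common peaks with a 50 bp window (-2.07), while it reversed below a -log10 q of 5 (2.16). For ZBTB33, the difference from the common peaks no longer excluded 0 with the 50 bp window (-1.78), at a -log10 q of at least 5 (-3.11) and below it (-1.94), and that from the FGF19-only peaks below it (1.25). The forkhead difference from the common peaks no longer excluded 0 with the 50 bp window (0.588) or at a -log10 q of at least 5 (1.21) and reversed over the whole peak (-0.566). Its difference from the FGF19-only peaks no longer excluded 0 with the 50 bp window (0.324), over the whole peak (0.496), at a -log10 q of at least 5 (1.09), below it (1.29), and without members that had an FGF19 peak within 1000 bp (0.906). The causes were not tested. Matching Tfeb as Tcfeb raised the autophagy list from 1 to 2 genes. That match, the splits by -log10 q, the removal of members near an FGF19 peak and the reweighting of peak classes by GC were chosen after seeing the data. Of all alternatives, 56 counted as unchanged by the rule for their kind. For these a difference kept its direction and call, a count stayed near its main value, or a share stayed within its counting interval. The downstream share and the number of genes were among them. Of the other alternatives with an interval or a count, 14 differences no longer excluded 0, 2 reversed, and 4 counts or shares moved. Reweighting by GC gives no interval, so whether a difference excluded 0 was not called there. All 6 such motif differences kept their sign and stayed within the main interval. The reweighted shares of promoters without a peak left their counting intervals for the YY1/SRE core (5.39%, interval 4.63 to 5.24) and ZBTB33 (0.933%, interval 0.539 to 0.767). No paired analysis was possible because each group is 1 library. Pooling of the mice leaves the variation between animals unknown, and the deeper vehicle library and the q-value cutoff limit what a vehicle-only call can show.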
